A study of Mus musculus with 36 samples.

Results

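The genotype by depot interaction in ob/ob mice asks whether leptin deficiency was accompanied by a different shift of gene expression in epididymal adipocytes than in bone marrow adipocytes. It was taken as a difference of differences, the level in epididymal ob/ob cells minus that in epididymal chow cells, less the same difference in bone marrow cells, and it used 12 of the 36 arrays of the series. These were the 3 arrays each of 4 groups, all of male mice at 6 months of age on standard chow: epididymal and bone marrow adipocytes of ob/ob mice, which lack functional leptin through a mutation of Lep, and of C57BL/6J mice, called chow here. A positive interaction means that the ob/ob minus chow difference was higher in epididymal than in bone marrow cells, and a negative one that it was lower.

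RNA was hybridized to Affymetrix Mouse Gene 1.0 ST arrays, and the other groups of the series differ from these in diet or age. Each array carried RNA pooled from several mice, because a single marrow yields few adipocytes, so the spread between arrays is a spread between pools and not between animals. Epididymal fat was digested with collagenase before the cells were floated, whereas marrow was flushed from femurs and tibias, freed of red cells by lysis and centrifuged, so depot and isolation procedure cannot be told apart. Cells of both depots are described as coming from the same animals, but no source used here says that equally numbered pools held the same mice. In bulk RNA of this kind, fewer cells of a type and less RNA per cell cannot be told apart either, and this holds for every gene below.

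Leptin is secreted by adipocytes in proportion to their fat stores and acts through its receptor, chiefly in the hypothalamus, to restrain feeding and raise energy use. Mice without it become severely obese and insulin resistant, and the epididymal depot of obese mice is known for macrophages that gather around dying adipocytes. Marrow adipocytes lie among blood-forming cells, are smaller, and are regarded as a distinct depot.

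The cell type labels were checked against marker genes. Over 9 markers of mature adipocytes, the mean level per array was between 12.73 and 12.76 (log2) in epididymal chow cells and between 11.28 and 11.79 in epididymal ob/ob cells, but only between 6.72 and 7.17 in marrow chow cells and between 7.01 and 8.47 in marrow ob/ob cells. Over 7 neutrophil markers the marrow arrays lay between 12.45 and 12.72, so the floating cells of marrow carried much hematopoietic RNA. Epididymal neutrophil levels ranged from 5.46 to 9.49 in chow and from 6.10 to 8.14 in ob/ob cells, with 1 array well above the other 2 in each group. Marrow chow array 01 and marrow ob/ob array 03 belong to a set of 8 arrays of the series that an earlier analysis of these data found to stand apart. Small nucleolar RNAs averaged 7.88 and 7.36 on these 2 arrays and between 6.67 and 6.87 on the other 4 marrow arrays. With a term for this set 2608 probe sets were called, and 2968 without the 2 arrays, against 2520 with neither. Each marrow group holds 1 array of the set, so the term cancels in the interaction and changes only the spread. No call could change sign with the term. Without the 2 arrays 2337 of the 2520 were called again and none was called in the opposite direction. The signs of calls that were lost were not compared. The other arrays of the set are all those of the 6-month high-fat diet groups, in both depots.

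Of 23410 probe sets with a gene symbol, 2520 (10.8%) had an interaction past the threshold, an adjusted p below 0.05 in limma together with at least a 2-fold difference of differences. Among them 1469 (6.28%) were higher and 1051 (4.49%) lower. With no fold minimum 2495 (10.7%) were higher and 2138 (9.13%) lower, and these shares are the background for the gene lists below, whose members were counted in the same way. The median interaction over all tested probe sets was log2 -0.05, and 7364 probe sets had an unadjusted p below 0.05. Scaling each array to its own median moved this median to -0.17 and turned the calls to 1250 higher and 1317 lower.

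The interaction lay for the most part in the epididymal cells. The ob/ob minus chow difference was called by the same rule for 2286 probe sets in epididymal cells and for 35 in marrow. The p-values were adjusted within each comparison, so a marrow difference needed a smaller unadjusted p to pass. For Fos the marrow difference was 1.03 with an SE of 0.32 and an adjusted p of 0.225 in limma. For Car3 the epididymal difference was -1.25 with an SE of 0.38 and an adjusted p of 0.0126. The counts by depot below rest on these unequal cutoffs. Of the 1469 higher calls, 1138 had a called difference in epididymal cells alone, 8 in marrow alone, 5 in both with opposite signs and 318 in neither. Of the 1051 lower calls these counts were 808, 4, 4 and 235, and 0 calls in either direction had called differences of the same sign in both depots. The difference was larger in epididymal cells for 1402 of the higher and 1021 of the lower calls, with medians of 1.39 in epididymal cells and -0.18 in marrow for the higher ones and -1.32 and 0.13 for the lower ones. Choosing calls by the difference between depots itself favours opposite signs. The signs of the marrow medians and the count of 0 above are therefore no separate evidence. For 258 of the higher and 436 of the lower calls both marrow means lay under the median of all values, 6.25. Both epididymal means did so for 147 of the higher and 90 of the lower calls. Signal in that depot was low for these, and how far this hid a difference, above all a fall, was not tested. Arrays are called not overlapping here where the smallest ob/ob minus chow difference between any 2 epididymal arrays exceeded the largest between any 2 marrow arrays, or the mirror image for a lower interaction. This held for 1072 of the higher and 927 of the lower calls. Over all probe sets it held for 6.59% in the higher and 7.28% in the lower direction. Spread between arrays was larger in marrow, where the median SD of a probe set was 0.248 in ob/ob and 0.226 in chow cells, against 0.185 and 0.153 in epididymal cells.

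**Figure D1:**
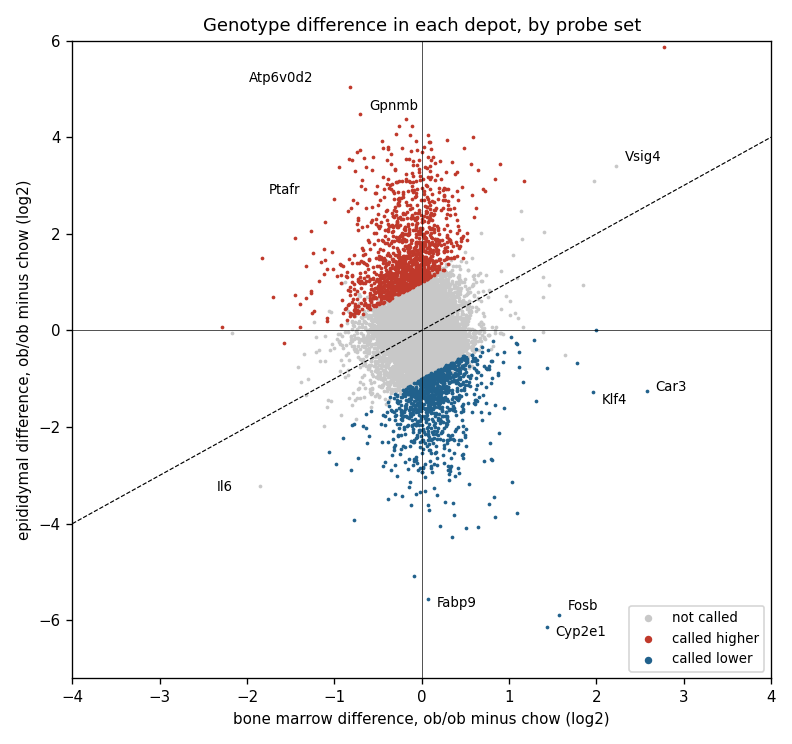
Each point is a probe set with 1 gene symbol, placed by its ob/ob minus chow difference in marrow (x axis, log2) and in epididymal cells (y axis, log2), red where the interaction was called higher and blue where lower. The called points form a tall cloud along the vertical axis, with Cyp2e1 and Fosb at its foot, and the dashed line marks an interaction of 0.

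Macrophage genes carried the most uniform positive interaction. All 20 pan-macrophage markers were higher, beside 10.7% of all probe sets, with a median interaction of log2 3.34 against -0.05 over all genes. In epididymal cells their median difference was 3.10, and in marrow it was -0.20. Their mean level per array was 10.41, 10.99 and 11.14 in epididymal ob/ob cells and 8.17, 7.69 and 7.60 in epididymal chow cells, so that these groups were more than 2 log2 units apart. In marrow it was 9.94, 9.95 and 10.23 in ob/ob and 10.10, 10.32 and 10.33 in chow cells, which overlap.

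Mpeg1, which encodes perforin-2, a pore-forming protein that macrophages use against engulfed bacteria, was at 11.22, 11.85 and 12.01 in epididymal ob/ob cells and at 7.95, 7.19 and 7.27 in epididymal chow cells. Its marrow levels were 10.43, 10.63 and 10.71 in ob/ob and 10.45, 10.85 and 10.81 in chow cells. The epididymal groups were well apart and the marrow groups overlapped. The interaction was 4.34 ± 0.34 (log2, SE, adjusted p = 5.99e-10), a 20.2-fold difference of differences. Ms4a7, a membrane protein of macrophages and microglia, followed at 4.21 ± 0.48. Cd68, a lysosomal glycoprotein of macrophages, had 3.78 ± 0.35, and Adgre1, an adhesion receptor widely used as a marker of mouse macrophages, 3.70 ± 0.39 with a marrow difference of -0.001. Csf1r, the receptor for the growth factor on which macrophages depend, had a smaller interaction, 1.91 ± 0.34, its differences being 2.53 in epididymal cells and 0.62 in marrow. Cd14, the lipopolysaccharide co-receptor, had the smallest of the list, 1.28 ± 0.31 (adjusted p = 0.00297), and here the marrow difference of -1.08 was the larger one, beside 0.20 in epididymal cells.

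The genes of lipid-associated macrophages, cells that take up lipid from dying adipocytes and digest it, included the 2 highest interactions. Of 17 members 13 were higher and 1 lower, with a median of 2.33. Atp6v0d2, a subunit of the proton pump that acidifies lysosomes, was at 9.91, 11.44 and 11.87 in epididymal ob/ob cells and at 5.90, 6.39 and 5.79 in epididymal chow cells. In marrow it was at 6.53, 6.56 and 8.05 in ob/ob and at 8.25, 7.39 and 7.98 in chow cells. No epididymal ob/ob array came near a chow array, while the marrow groups overlapped through ob/ob array 03. Its interaction, 5.87 ± 0.66 (adjusted p = 1.7e-07, 58.4-fold), was the highest among the probe sets with 1 symbol.

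Gpnmb, a glycoprotein of lysosome-rich macrophages, was at 12.10, 12.74 and 12.94 in epididymal ob/ob cells and at 7.96, 8.21 and 8.20 in epididymal chow cells, with an interaction of 5.17 ± 0.45 (adjusted p = 3.06e-09). Marrow levels were 7.08, 7.41 and 7.98 in ob/ob and 8.35, 8.04 and 8.18 in chow cells, the ob/ob arrays all being below the chow arrays. Nceh1, a cholesteryl ester hydrolase, had 4.18 ± 0.48, Itgax, the CD11c antigen of adipose macrophages in obesity, 3.28 ± 0.56, and Trem2, the lipid receptor that these cells need, 2.90 ± 0.45. Lipa, the lysosomal acid lipase, had 2.33 ± 0.31. Cd36, a fatty acid transporter that adipocytes share with macrophages, was the lower member, at -0.94 ± 0.20 (adjusted p = 0.000955). Its epididymal difference was -0.05 and its marrow difference 0.90.

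Among 22 lysosomal genes 12 were higher and 0 lower, with a median of 0.65, and Atp6v0d2 and Lipa stand in this list too. Gla, the lysosomal alpha-galactosidase, had 2.31 ± 0.22 (adjusted p = 1.78e-08), and Atp6v1a, the catalytic subunit of the proton pump, 1.58 ± 0.24 (adjusted p = 1.34e-05). Both are shown here with the 250 bases before their start (RefSeq, GRCm38.p6, minus strand for both), because many lysosomal promoters hold the CLEAR core TCACGTGA, which is bound by TFEB in mammalian cells. Capitals mark that core, a palindrome. Gla lies at chrX:134601006-134601255 and Atp6v1a at chr16:44139260-44139509.
Gla: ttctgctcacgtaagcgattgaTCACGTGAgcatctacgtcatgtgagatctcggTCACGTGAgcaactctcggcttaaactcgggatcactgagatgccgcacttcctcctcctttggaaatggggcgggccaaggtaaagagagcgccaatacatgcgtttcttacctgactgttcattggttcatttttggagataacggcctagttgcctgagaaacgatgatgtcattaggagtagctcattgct
Atp6v1a: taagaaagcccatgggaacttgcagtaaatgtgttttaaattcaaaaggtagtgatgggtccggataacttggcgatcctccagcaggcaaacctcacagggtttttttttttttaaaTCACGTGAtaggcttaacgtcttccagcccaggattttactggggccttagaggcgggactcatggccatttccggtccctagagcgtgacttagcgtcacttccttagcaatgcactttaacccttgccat
Of the 18 lysosomal genes with a promoter in the table, 5 (27.8%) held TCACGTGA in this window, beside 0.907% of the 27025 genes in the table. In Gla, with 2 matches, the level was 9.72, 9.61 and 9.86 in epididymal ob/ob cells against 8.37, 8.21 and 8.18 in chow cells, and 9.32, 8.72 and 9.55 in marrow ob/ob against 10.09, 9.74 and 10.25 in chow cells. The genotypes were thus apart in both depots, in opposite directions. A match describes the letters in the window and is not a bound site.

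Cpa3 and Hpgds were both among the 15 highest interactions. Cpa3, the carboxypeptidase of mast cell granules, was at 7.78, 9.91 and 10.18 in epididymal ob/ob cells and at 5.22, 4.72 and 4.78 in chow cells. In marrow it was at 7.65, 6.49 and 9.29 in ob/ob and at 8.86, 7.13 and 7.97 in chow cells, a wide spread with no separation of the genotypes. The interaction was 4.56 ± 0.71 (adjusted p = 2.22e-05). Hpgds, the hematopoietic prostaglandin D synthase of mast cells and some macrophages, had 4.49 ± 0.49 (adjusted p = 1.21e-07). Genes of 3 mast cell proteases were picked because of their values, so their direction is no separate evidence, and no list of mast cell genes was counted. Mcpt4 had 3.98 ± 0.66, Tpsb2 2.91 ± 0.36 and Cma1 1.76 ± 0.26, with marrow differences of 0.07, 0.07 and 0.001. On epididymal ob/ob array 01 Mcpt4 was at 7.30, against 10.44 and 10.76 on the other 2 arrays of its group.

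**Figure D2:**
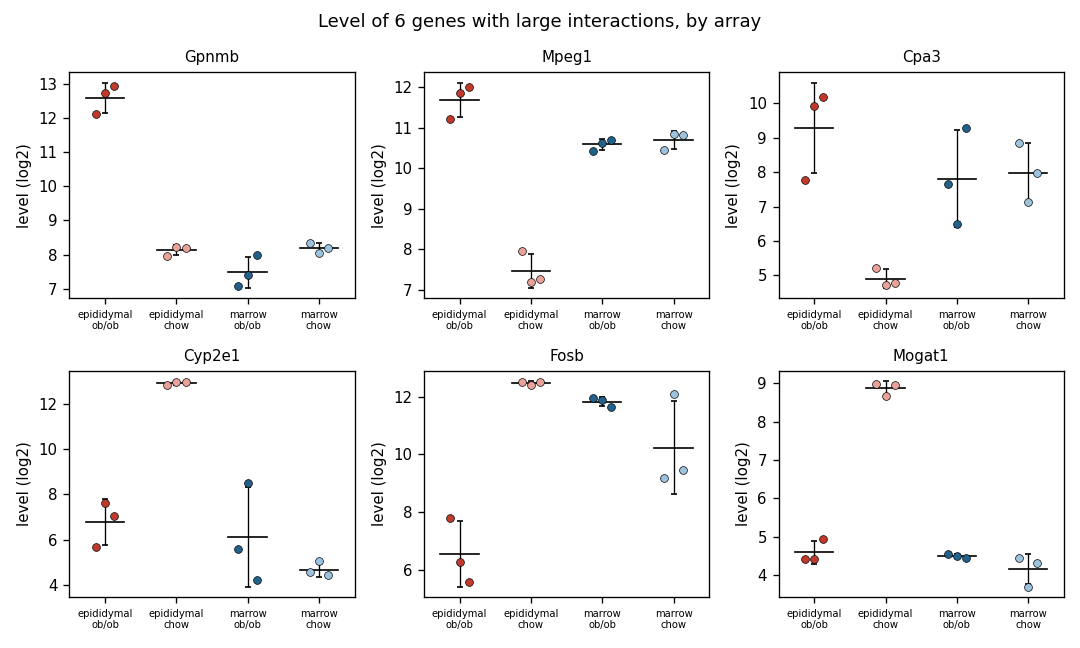
Level (log2) of 6 genes on each array of the 4 groups, points being arrays, the bar the mean and the whisker 1 SD (n = 3). Gpnmb, Mpeg1 and Cpa3 were high in epididymal ob/ob cells, while Cyp2e1, Fosb and Mogat1 were low there and high in epididymal chow cells.

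Of the other genes among the 15 highest, most are known from immune cells. Ms4a6d (4.43 ± 0.52) and Ms4a6b (4.37 ± 0.29) are membrane proteins of the same family as Ms4a7. Tm4sf19 (4.44 ± 0.56) encodes a tetraspan membrane protein, Adam8 (4.39 ± 0.40) a leukocyte metalloprotease and C3ar1 (4.32 ± 0.44) the receptor for complement fragment C3a. Il7r (4.33 ± 0.57) is the interleukin 7 receptor of lymphocytes, and Anpep (4.23 ± 0.40) is aminopeptidase N, found on myeloid cells and fibroblasts. Gpr50, an orphan relative of the melatonin receptors, was at 10.18, 10.12 and 10.36 in epididymal ob/ob cells against 6.77, 6.64 and 6.57 in chow cells, and its interaction was 4.39 ± 0.51 (adjusted p = 3.38e-07). In marrow, Gpr50 ob/ob arrays 01 and 02 were at 5.09 and 5.31, below the other 4 arrays, which lay between 6.50 and 6.74.

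Genes of tissue-resident macrophages did not move as one. Of 18 members 6 were higher and 2 lower, with a median of 0.47, which was 0.84 without marrow ob/ob array 03 and 0.23 without marrow ob/ob array 01. Clec10a, a galactose-binding lectin, had 3.34 ± 0.25 (adjusted p = 3.21e-10), and Mrc1, the mannose receptor, 3.15 ± 0.39. Retnla, a secreted protein induced by interleukin 4, went the other way. It was at 4.84, 6.35 and 6.27 in epididymal ob/ob cells and at 10.21, 9.59 and 9.80 in chow cells, with an interaction of -4.26 ± 0.38 (adjusted p = 4.97e-09), and in all 6 marrow arrays it lay between 4.11 and 4.90. Vsig4, a complement receptor of resident macrophages, was higher in ob/ob cells of both depots, by 3.40 in epididymal cells and 2.22 in marrow. Its interaction of 1.17 ± 0.71 missed the threshold (adjusted p = 0.267), while the interaction of Vsig4 was 1.90 (adjusted p = 0.0252) without marrow ob/ob array 03.

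Cytokines, chemokines and their regulators split in 2 directions, with 17 of 36 higher and 6 lower. The higher ones included Ccr2, the receptor that draws monocytes out of marrow (3.63 ± 0.41), Cxcl13, a B cell chemokine (3.41 ± 0.75), Il33, an alarmin of stromal cells (3.31 ± 0.47), and Ccl8, a monocyte chemokine (2.97 ± 0.31). For Il33 the epididymal levels were 9.98, 8.08 and 7.77 in ob/ob and 5.46, 5.16 and 4.83 in chow cells. The marrow levels of Il33, between 4.10 and 4.56, lay below all of them.

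The 6 lower ones are known as fast-responding targets of NF-kappa-B, STAT or interferon signaling. Cxcl1, a neutrophil chemokine, was at 8.44, 7.15 and 6.86 in epididymal ob/ob cells and at 11.16, 11.48 and 11.30 in chow cells, with an interaction of -4.20 ± 0.35 (adjusted p = 1.64e-09). Cxcl10, an interferon-induced chemokine, had -3.15 ± 0.28, Tnfaip3, the A20 inhibitor of NF-kappa-B, -2.69 ± 0.23, Cxcl2, another neutrophil chemokine, -2.56 ± 0.66, Socs3, an inhibitor of STAT3 signaling, -2.48 ± 0.37 and Nfkbia, the NF-kappa-B inhibitor alpha, -1.84 ± 0.19. All of these were lower in epididymal ob/ob than in epididymal chow cells, by between 1.89 (Nfkbia) and 3.92 (Cxcl10). Without epididymal ob/ob array 01 the lower count was 10. Il6 was lower in ob/ob cells of both depots, by 3.23 in epididymal cells and 1.85 in marrow, and its interaction of -1.37 ± 0.51 missed the threshold (adjusted p = 0.0584). Without epididymal ob/ob array 01 the interaction of Il6 was -1.93 (adjusted p = 0.00213), and it also passed without marrow chow array 01 (-1.58) or marrow ob/ob array 02 (-1.55).

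Lists of other immune functions leaned to positive interactions. Of 9 genes of MHC class II presentation, which displays peptides to helper T cells, 7 were higher and 0 lower, with a median of 1.35, and the chain H2-Ab1 had 2.16 ± 0.27. Complement genes counted 7 of 13 higher and 1 lower, but C1qa, C1qb and C1qc among them also stand in the pan-macrophage list, C1qb with 3.80 ± 0.49. T cell and NK cell genes counted 8 of 19 higher and 0 lower, with a median of only 0.31 and 6 negative estimates. Cd3g, a chain of the T cell receptor complex, had 2.18 ± 0.46, but over 3 T cell markers 1 was higher and the median was 0.18. B cell and plasma cell genes counted 5 of 14 higher and 0 lower, with Jchain, which joins secreted antibody chains, at 3.01 ± 0.60. That count was 3 without epididymal chow array 02 or without marrow ob/ob array 02. Interferon-stimulated genes counted 4 of 15 higher and 0 lower, with a median of 0.45. Here the median difference was -0.17 in epididymal cells and -0.52 in marrow, so that list was not higher in epididymal ob/ob cells as a whole.

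**Figure D3:**
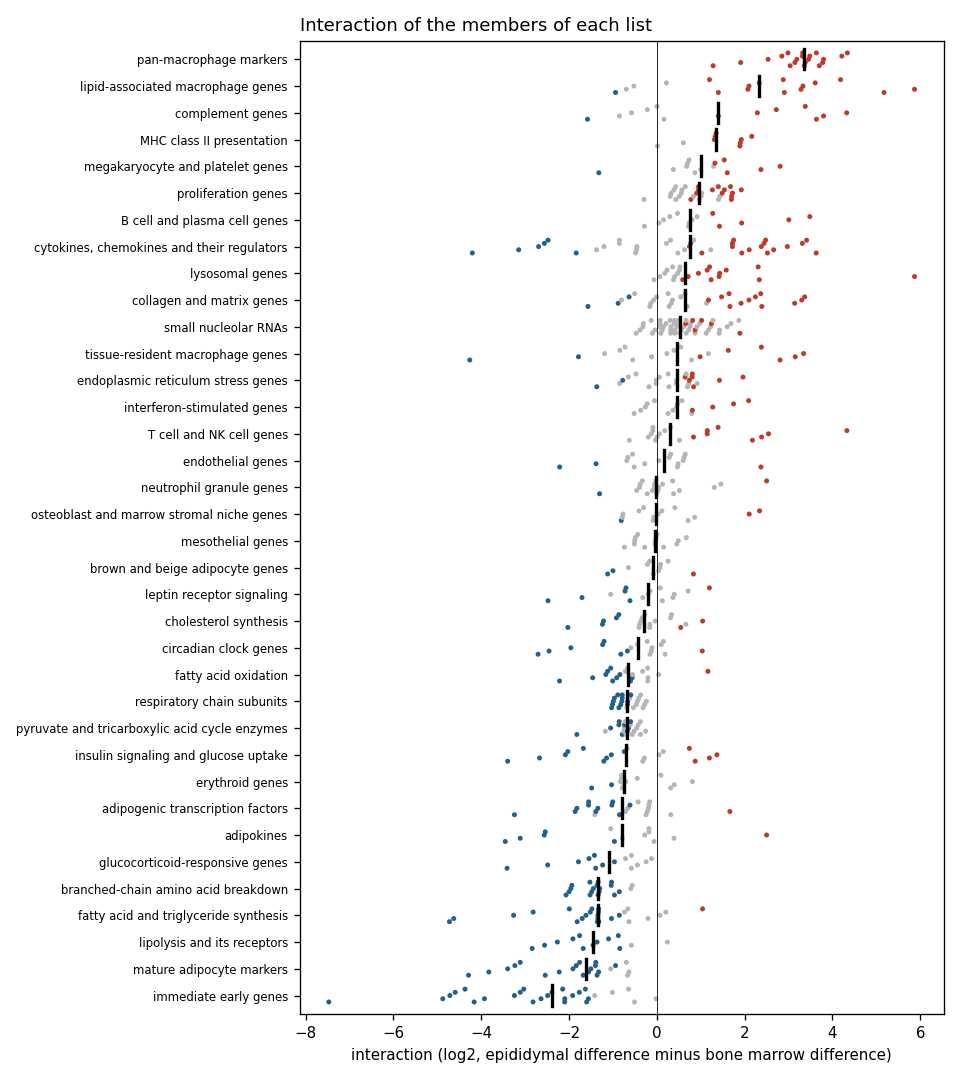
Interaction (log2, x axis) of every measured member of the 36 gene lists, ordered by their median (black bar), red where higher and blue where lower at an adjusted p below 0.05 and grey otherwise. Pan-macrophage markers are at the top with 20 of 20 members red, and immediate early genes at the foot with 22 of 27 members blue.

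Adipocyte genes had negative interactions. Of 22 mature adipocyte markers 0 were higher and 18 lower, beside 9.13% of all probe sets, with a median of -1.62. The median epididymal difference was -1.16, and in marrow, where adipocyte transcripts were low in both genotypes, the median difference was 0.47. Their mean level per array was 10.60, 11.18 and 11.25 in epididymal ob/ob cells and 12.32, 12.32 and 12.29 in chow cells. In marrow it was 7.49, 8.44 and 7.99 in ob/ob and 7.40, 7.53 and 7.13 in chow cells, so the genotypes were apart in epididymal cells and overlapped in marrow. Macrophage markers moved the opposite way on the same epididymal arrays (10.71 to 11.69 in ob/ob and 7.93 to 8.19 in chow cells over 7 markers), and the part of this in the adipocyte result was not tested.

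Slc2a4, which encodes the insulin-responsive glucose transporter GLUT4, was at 6.85, 8.29 and 8.05 in epididymal ob/ob cells and at 10.64, 10.86 and 10.75 in chow cells. Marrow levels were 7.66, 7.71 and 7.68 in ob/ob and 7.17, 7.31 and 7.43 in chow cells, slightly higher in ob/ob. The interaction was -3.40 ± 0.32 (adjusted p = 1.33e-08). Pck1, phosphoenolpyruvate carboxykinase, an enzyme on the route to glycerol phosphate for triglyceride in adipocytes, had -4.29 ± 0.41 (adjusted p = 1.23e-08). Retn, the adipokine resistin, had -3.11 ± 0.41, Adipoq, the adipokine adiponectin, -2.54 ± 0.56 and Plin1, perilipin, which coats lipid droplets, -1.91 ± 0.38. Retn levels were 10.58, 10.93 and 10.81 in epididymal ob/ob against 13.18, 13.04 and 13.09 in chow cells. For Adipoq the marrow arrays ranged from 7.88 to 10.45 in ob/ob and from 7.64 to 9.14 in chow cells, the highest of each group being an array of the set that stands apart.

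The lowest interaction among the probe sets with 1 symbol was that of Cyp2e1, a cytochrome P450 that oxidizes ethanol, ketones and fatty acids and is abundant in liver and in white fat. It was at 5.67, 7.62 and 7.05 in epididymal ob/ob cells and at 12.83, 12.96 and 12.94 in chow cells, and at 5.60, 8.52 and 4.23 in marrow ob/ob and 4.55, 5.04 and 4.45 in marrow chow cells. The epididymal groups were more than 5 log2 units apart, while marrow ob/ob array 02 alone stood above the other marrow arrays. The interaction was -7.57 ± 0.80 (adjusted p = 8.12e-08). Fabp9, a fatty acid binding protein known from testis, was at 4.44, 4.18 and 4.03 in epididymal ob/ob cells and at 9.29, 9.81 and 10.26 in chow cells, with all marrow arrays between 3.75 and 4.06, and had -5.64 ± 0.25 (adjusted p = 1.44e-14). Lsmem1, a small membrane protein of leucine-rich sequence, had -4.99 ± 0.28 (adjusted p = 3.4e-12).

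Enzymes that build fatty acids and triglycerides had 1 member higher and 18 lower of 25, with a median of -1.34. Thrsp, the Spot 14 protein that promotes lipogenesis, was at 5.82, 8.50 and 8.75 in epididymal ob/ob cells and at 11.88, 11.75 and 11.66 in chow cells, with an interaction of -4.72 ± 0.59 (adjusted p = 1.05e-06). Mogat1, a monoacylglycerol acyltransferase, was at 4.41, 4.42 and 4.95 against 8.99, 8.68 and 8.95, with -4.63 ± 0.33 (adjusted p = 1.75e-10). Pnpla3, a lipid droplet protein, had -3.26 ± 0.36, Acacb, the acetyl-CoA carboxylase that restrains fatty acid oxidation, -2.82 ± 0.29, and Fasn, fatty acid synthase, -1.99 ± 0.20. In marrow the differences of these 5 genes lay between 0.18 and 0.64. The higher member, Fads2, a desaturase of polyunsaturated fatty acids, had 1.04 ± 0.36 (adjusted p = 0.0393), and missed the threshold when any of 8 arrays was left out, when each array was scaled to its median and with the 12 arrays alone.

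Lipolysis genes and their receptors were lower in 11 of 13 cases and higher in 0, with a median of -1.45. Hcar1, the lactate receptor through which lipolysis is inhibited, was at 7.31, 7.43 and 7.98 in epididymal ob/ob cells and at 10.23, 10.61 and 10.51 in chow cells. Its marrow arrays lay between 5.54 and 5.72 in both genotypes, and its interaction was -2.84 ± 0.22 (adjusted p = 5.99e-10). Ffar4, a receptor for long-chain fatty acids, had -2.56 ± 0.32 and Lipe, hormone-sensitive lipase, -1.68 ± 0.21.

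Breakdown of branched-chain amino acids, a mitochondrial route that white adipocytes use heavily, was among the most uniform lists. Of 19 members 17 were lower and 0 higher, with a median of -1.34 and all 19 estimates negative. The median difference was -1.37 in epididymal cells and -0.03 in marrow. The mean level of the list was 8.93, 9.32 and 9.32 in epididymal ob/ob and 10.54, 10.53 and 10.49 in epididymal chow cells. Hibch, which hydrolyses an intermediate of valine breakdown, had -2.07 ± 0.32, Bckdhb, a subunit of the branched-chain ketoacid dehydrogenase, -2.00 ± 0.22, and Bcat2, the mitochondrial aminotransferase of the first step, -1.36 ± 0.22.

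Other mitochondrial lists had the same direction with smaller values. Respiratory chain subunits counted 13 of 23 lower and 0 higher, with a median of -0.67, all 23 estimates being negative and only 2 reaching a 2-fold difference. Enzymes of pyruvate entry and the tricarboxylic acid cycle counted 9 of 22 lower and 0 higher, with a median of -0.69, 14 of 22 with a term for the set of arrays that stands apart and 17 of 22 after quantile normalization. Pcx, pyruvate carboxylase, had the lowest value of that list, -1.82 ± 0.29. Fatty acid oxidation counted 10 of 19 lower and 1 higher, with Ehhadh, a peroxisomal enzyme, at -2.22 ± 0.32 and Cpt1a, the carnitine palmitoyltransferase of most non-muscle cells, higher at 1.16 ± 0.27 (adjusted p = 0.00195). With the 12 arrays alone the interaction of Cpt1a missed the threshold (adjusted p = 0.0594). Cholesterol synthesis counted 5 of 18 lower and 2 higher, with a median of -0.30 that was -0.03 without epididymal ob/ob array 01, and with 0 higher after quantile normalization.

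**Figure D4:**
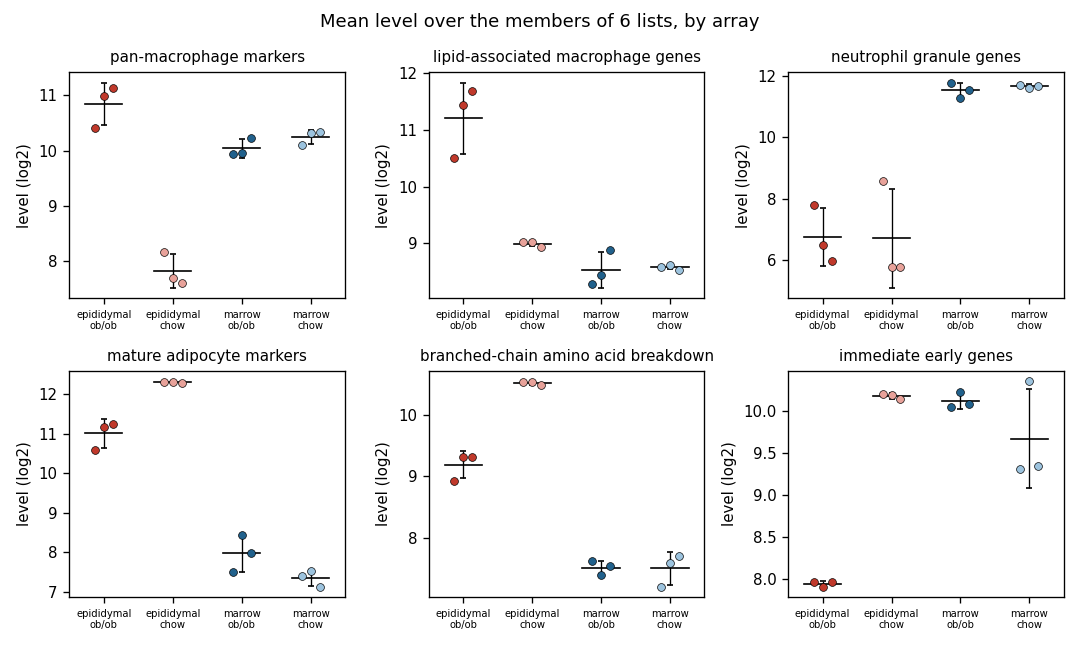
Mean level (log2) over the members of 6 lists on each array, points being arrays, the bar the mean and the whisker 1 SD (n = 3 arrays). Pan-macrophage markers lie between 10.41 and 11.14 in epididymal ob/ob cells and between 7.60 and 8.17 in epididymal chow cells, mature adipocyte markers and branched-chain amino acid genes run the other way, and neutrophil granule genes reach 8.58 on epididymal chow array 01.

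Insulin signaling genes went in both directions, with 9 of 18 lower and 4 higher. Irs2 and Irs1, the docking proteins of the insulin receptor, had -2.67 ± 0.28 and -2.08 ± 0.25. Higher were Ptpn1, the phosphatase PTP1B that damps insulin and leptin receptor signaling (1.20 ± 0.18), and Tbc1d1, a Rab regulator of glucose transporter traffic (1.37 ± 0.20). Ptpn1 was at 9.26, 9.35 and 9.59 in epididymal ob/ob and at 8.24, 8.05 and 7.88 in chow cells, with all marrow arrays between 9.30 and 9.81. The epididymal groups were apart and the marrow groups overlapped.

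Of 22 adipogenic transcription factors 11 were lower and 1 higher, with a median of -0.78. The lowest value, -3.24, was that of Klf4, which is also an immediate early and myeloid factor. Klf15, which favours adipocyte differentiation and amino acid breakdown, had -1.86 ± 0.24, and Cebpa, which works beside Pparg to keep the adipocyte program, -1.55 ± 0.26 (adjusted p = 5.95e-05). Pparg itself, the master regulator of adipocytes, had -1.39 ± 0.41 (adjusted p = 0.0163), with marrow ob/ob levels of 7.97, 8.71 and 9.61 and chow levels of 8.58, 8.30 and 7.95. The interaction of Pparg was -0.97 and missed the threshold without marrow ob/ob array 03, and it also missed it without epididymal ob/ob array 01 (-1.10) or marrow chow array 03 (-1.23), or with the 12 arrays alone (adjusted p = 0.104).

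Glucocorticoid-responsive genes counted 8 of 14 lower and 0 higher, with a median of -1.10. Zbtb16, a strongly steroid-induced zinc finger factor, had the lowest value of this list, -3.41 ± 0.34 (adjusted p = 2.43e-08). Clock genes counted 7 of 17 lower and 1 higher, with a median of -0.44 that was -0.20 without epididymal ob/ob array 01, and with Nfil3, a repressor of clock output, at -2.71 ± 0.29 and Nr1d1, the nuclear receptor REV-ERB alpha, at -2.45 ± 0.32. The hour at which each group was killed is not given in the sources used here. Adipokines counted 5 of 13 lower and 1 higher, Lcn2, with a median of -0.79 that was -0.38 without marrow ob/ob array 02 and -0.27 without marrow ob/ob array 03. Brown and beige adipocyte genes counted 2 of 11 lower and 1 higher.

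Immediate early genes, which cells switch on within minutes of a growth factor, stress or injury signal, had the lowest median of all 36 lists, -2.39. Of 27 members 22 were lower, beside 9.13% of all probe sets, and 0 were higher. In epididymal cells the mean level of the list was 7.97, 7.91 and 7.96 in ob/ob and 10.20, 10.19 and 10.14 in chow cells. In marrow it was 10.05, 10.22 and 10.08 in ob/ob and 9.31, 10.35 and 9.35 in chow cells. Of the 4 groups 3 were tight, and marrow chow array 02 stood apart from the other 2 of its group. Leaving out 1 array at a time gave between 22 and 24 lower members and a median between -2.81, without marrow chow array 02, and -2.20.

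Fosb, a subunit of the AP-1 transcription factor, was at 7.81, 6.29 and 5.59 in epididymal ob/ob cells and at 12.50, 12.39 and 12.49 in chow cells. In marrow it was at 11.94, 11.87 and 11.64 in ob/ob and at 9.19, 12.08 and 9.45 in chow cells. The interaction was -7.47 ± 0.77 (adjusted p = 4.95e-08, 177-fold). Fos, another AP-1 subunit, had -4.16 ± 0.45, Egr1, a zinc finger factor of the serum response, -4.71 ± 0.50, and Nr4a1, an orphan nuclear receptor, -4.59 ± 0.40. Ccn1, a secreted matrix protein induced by stretch and serum, had -4.88 ± 0.59, Ier2 -4.37 ± 0.53 and Btg2, an antiproliferative protein, -3.93 ± 0.25. For Myc, the growth factor-induced regulator, the marrow levels were alike (8.36 to 8.67 in ob/ob and 8.19 to 8.59 in chow cells), and the interaction was -2.82 ± 0.18 (adjusted p = 2.08e-11). Jun, the partner of Fos, had -3.03 ± 0.23. Nr4a3, a relative of Nr4a1, was lower in ob/ob cells of both depots, by 1.59 and 1.08, and its interaction of -0.51 ± 0.34 missed the threshold (adjusted p = 0.321).

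Promoters of 2 of these genes are shown because they hold the cyclic AMP response element TGACGTCA, the site bound by CREB, which is a classical route to immediate early transcription. They are Btg2 at chr1:134079156-134079405 and Dusp1 at chr17:26508473-26508722 (RefSeq, GRCm38.p6, minus strand for both, the 250 bases before the start), with the element, a palindrome, in capitals.
Btg2: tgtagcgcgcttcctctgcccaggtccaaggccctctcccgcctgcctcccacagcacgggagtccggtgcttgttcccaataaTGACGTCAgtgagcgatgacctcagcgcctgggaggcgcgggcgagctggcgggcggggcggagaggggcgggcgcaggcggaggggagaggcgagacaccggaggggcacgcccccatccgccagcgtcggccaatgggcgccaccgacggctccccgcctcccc
Dusp1: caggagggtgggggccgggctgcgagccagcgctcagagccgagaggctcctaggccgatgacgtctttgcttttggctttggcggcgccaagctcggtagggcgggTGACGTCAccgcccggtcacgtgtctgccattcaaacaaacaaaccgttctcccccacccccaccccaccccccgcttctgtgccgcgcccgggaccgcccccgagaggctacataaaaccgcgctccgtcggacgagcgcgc
Of 22 immediate early genes with a promoter in the table, 3 (13.6%) held this element in the window, beside 1.77% of the 27025 genes, so most members of the list lack these letters there. Btg2 was at 8.39, 8.02 and 8.26 in epididymal ob/ob cells, at 11.73, 11.83 and 11.81 in epididymal chow cells, at 11.34, 11.48 and 12.07 in marrow ob/ob cells and at 11.22, 11.78 and 10.81 in marrow chow cells. Dusp1, a phosphatase that switches off MAP kinases, was at 10.53, 10.52 and 11.19, at 12.41, 12.52 and 12.44, at 13.16, 13.18 and 13.47 and at 11.99, 13.32 and 12.19 in the same order, with an interaction of -2.49 ± 0.31 (adjusted p = 8.1e-07). Epididymal ob/ob cells were the low group for both genes. A match here is again a description of letters.

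For 9 genes the genotype difference was called in both depots with opposite signs. Higher interactions of this kind were those of Ptafr, the receptor for platelet-activating factor (3.72 ± 0.22, adjusted p = 4.02e-12), Cxcl16, a scavenger receptor and chemokine (2.80 ± 0.35), Il1rn, the interleukin 1 receptor antagonist (2.66 ± 0.31), Fnbp1l, a membrane-bending adaptor (2.56 ± 0.34), and Armcx3, a mitochondrial outer membrane protein (2.19 ± 0.36). Ptafr was at 9.63, 10.36 and 10.34 in epididymal ob/ob cells and at 7.45, 7.38 and 7.33 in chow cells, but at 9.40, 8.99 and 9.46 in marrow ob/ob and at 10.19, 10.22 and 10.46 in chow cells. All ob/ob arrays were above chow in epididymal cells and below it in marrow.

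The other 4 genes were lower in epididymal ob/ob cells and higher in marrow ob/ob cells. Car3, a carbonic anhydrase abundant in white fat, was at 12.34, 12.61 and 13.01 in epididymal ob/ob and at 13.89, 13.91 and 13.90 in chow cells, and at 8.93, 10.97 and 10.09 in marrow ob/ob and 6.92, 8.67 and 6.67 in chow cells. The genotypes did not overlap in either depot, and the interaction was -3.83 ± 0.53 (adjusted p = 4.99e-06). Ccdc80, a secreted protein of adipocytes, was at 7.50, 8.71 and 8.21 in marrow ob/ob and at 6.48, 7.23 and 6.79 in marrow chow cells, with -2.77 ± 0.30 (adjusted p = 1.24e-07). Klf4, an immediate early and myeloid transcription factor, had -3.24 ± 0.48, although marrow chow array 02, at 9.88, lay above marrow ob/ob array 01, at 9.85. Slc12a2, a sodium, potassium and chloride cotransporter, had -2.23 ± 0.35, with marrow ob/ob levels of 7.48 to 8.73 and chow levels of 6.38 to 7.47.

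**Figure D5:**
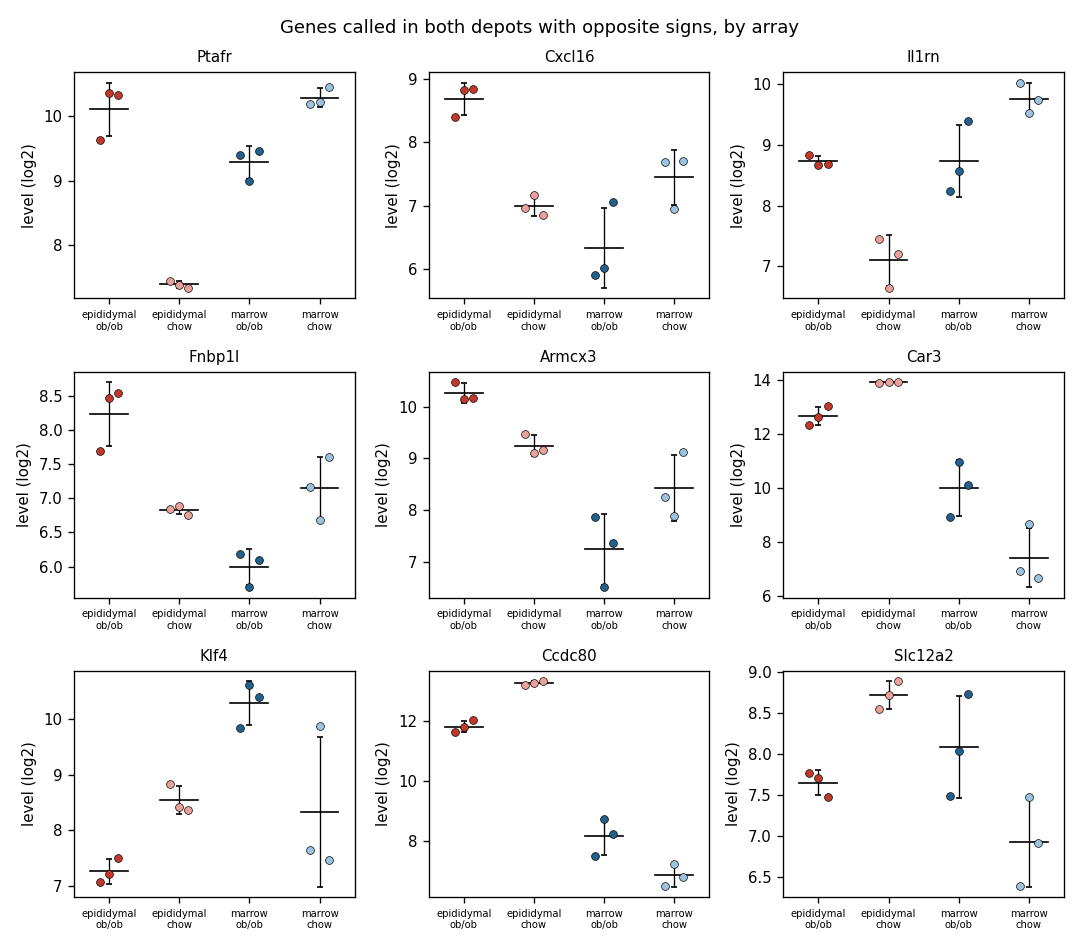
Level (log2) on each array of the 9 genes whose ob/ob minus chow difference was called in both depots with opposite signs, points being arrays, the bar the mean and the whisker 1 SD (n = 3). In Ptafr the ob/ob arrays lie above chow in epididymal cells (9.63 to 10.36 against 7.33 to 7.45) and below it in marrow, and in Car3 the order is turned.

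For 12 calls the marrow difference alone passed the threshold. Among the 8 higher ones were Gzmb, the granzyme B of cytotoxic cells, Oas2, an interferon-induced sensor of viral RNA, and Cd14. Gzmb was at 5.69, 5.74 and 6.03 in marrow ob/ob and at 8.23, 6.57 and 7.77 in marrow chow cells, lower in all ob/ob arrays, with an interaction of 2.39 ± 0.39 (adjusted p = 4.92e-05). Oas2 was at 6.43, 6.46 and 6.84 in marrow ob/ob and at 8.10, 7.81 and 7.62 in marrow chow cells, with 2.09 ± 0.28 (adjusted p = 2.97e-06). Ighg3, an immunoglobulin heavy chain constant region chosen after its values were seen, was at 4.41, 4.86 and 5.37 in marrow ob/ob and at 8.04, 6.10 and 7.35 in marrow chow cells, with 2.35 ± 0.46, and near-identical heavy chain genes may share its probes. Epididymal arrays of both genotypes lay between 3.91 and 4.39 for Ighg3, below the median of all values.

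Of the 4 lower calls of this kind, 1 probe set carries several symbols. The others were Cidec, Stfa2 and Stfa3, the last 2 named after their values were seen. Cidec, a lipid droplet protein that helps adipocytes to form a single large droplet, was at 6.62, 8.51 and 6.56 in marrow ob/ob and at 5.90, 6.19 and 5.28 in marrow chow cells, with an interaction of -2.22 ± 0.42 (adjusted p = 0.000287). Stfa2 and Stfa3, stefin A protease inhibitors of mouse neutrophils, had -1.98 ± 0.39 and -2.46 ± 0.42, and probes of this family may be shared between its near-identical copies. Epididymal arrays lay between 3.41 and 3.82 for Stfa2 and between 3.71 and 4.90 for Stfa3, below the median of all values.

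Megakaryocyte and platelet genes counted 5 of 13 higher and 1 lower, with a median of 1.00, and here the median difference was 0.08 in epididymal cells and -0.90 in marrow. Vwf, the platelet-tethering von Willebrand factor, was at 7.64, 7.76 and 7.78 in marrow ob/ob and at 8.89, 8.17 and 9.39 in marrow chow cells, and at 7.99, 7.95 and 8.11 against 6.90, 6.75 and 6.55 in epididymal cells. The genotypes were apart in both depots, with an interaction of 2.37 ± 0.38 (adjusted p = 3.52e-05), and Vwf also stands in the endothelial list. Treml1, a receptor of platelet granules, had 1.60 ± 0.42 (adjusted p = 0.00595). Without marrow chow array 02, which was the lowest of its group in the mean of this list (8.91 against 10.09 and 10.19), the median was 1.65, and without marrow ob/ob array 03 it was 1.61.

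Neutrophil granule genes, which dominate the marrow arrays, counted 1 of 20 higher and 1 lower, with a median of -0.02. Lcn2, the siderophore-binding lipocalin of neutrophils and inflamed fat, was the higher one, at 2.50 ± 0.72 (adjusted p = 0.0127), and the interaction of Lcn2 missed the threshold without epididymal chow array 02 or 03 and with the 12 arrays alone (adjusted p = 0.154). Its epididymal levels were 12.94, 11.91 and 11.10 in ob/ob and 11.85, 8.51 and 8.31 in chow cells, array 01 of the chow group overlapping the ob/ob group. The mean of the list on epididymal arrays was 7.79, 6.50 and 5.96 in ob/ob and 8.58, 5.79 and 5.78 in chow cells, and 5 members were higher and the median was 1.02 without epididymal chow array 01. Erythroid genes counted 2 of 13 lower and 0 higher, and 0 lower, 1 higher and a median of -0.25 in place of -0.75 without that array.

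Stromal and matrix genes counted 12 of 29 higher and 3 lower, with a median of 0.64 that was 1.18 without marrow ob/ob array 03 and 0.42, with 5 lower, without marrow ob/ob array 01. Pdgfra, the receptor that marks adipose fibroblasts and adipocyte precursors, was at 11.01, 10.59 and 10.03 in epididymal ob/ob and at 7.53, 7.65 and 7.42 in chow cells, with an interaction of 3.37 ± 0.44 (adjusted p = 1.75e-06). Lum, a proteoglycan that spaces collagen fibrils, had 3.30 ± 0.57, Timp1, an inhibitor of matrix metalloproteases, 3.14 ± 0.60 and Col3a1, a fibrillar collagen, 1.47 ± 0.23. Col15a1, a collagen of the basement membrane around adipocytes, was lower at -1.57 ± 0.30. The mean of the list was between 10.06 and 10.26 in epididymal ob/ob and between 8.99 and 9.10 in epididymal chow cells.

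Proliferation genes counted 13 of 29 higher and 0 lower, with a median of 0.95. Mki67, the Ki-67 antigen, was at 7.74, 8.52 and 8.48 in epididymal ob/ob and at 7.88, 6.24 and 5.74 in chow cells, so that chow array 01 overlapped the ob/ob arrays, with an interaction of 1.72 ± 0.48 (adjusted p = 0.0109). Top2a, a topoisomerase of dividing cells, had 1.92 ± 0.51 (adjusted p = 0.00699). With the 12 arrays alone both missed the threshold, the adjusted p being 0.0599 for the interaction of Top2a and 0.0823 for the interaction of Mki67, and the latter missed it without epididymal chow array 03 too. The count of higher members was 7 without epididymal chow array 03, 8 without epididymal chow array 02, marrow ob/ob array 02 or epididymal ob/ob array 02 or 03, and 18 without epididymal ob/ob array 01. Neutrophil granule genes were high on the same epididymal chow array 01, and their part in this list was not tested.

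Other lists held few calls or changed with single arrays. Mesothelial genes counted 0 of 14 in either direction, with a median of -0.04, and up to 2 in a direction when 1 array was left out. Endothelial genes counted 1 of 16 higher, Vwf, and 2 lower (3 higher without marrow ob/ob array 03, 4 lower without marrow ob/ob array 01 or epididymal ob/ob array 01, and 5 lower after quantile normalization). Osteoblast and marrow niche genes counted 2 of 14 higher and 1 lower, and 4 higher with a median of 0.39 in place of -0.02 without marrow ob/ob array 03. Endoplasmic reticulum stress genes counted 7 of 24 higher and 2 lower, with a median of 0.45, and 11 higher with a term for the set of arrays that stands apart. Small nucleolar RNAs, which stand out on the set of arrays described above, counted 6 of 51 higher and 0 lower, 15 higher with a term for that set, 2 after quantile normalization and 3 with each array centred on its median. Their count was 12 without marrow ob/ob array 03, 11 without marrow chow array 02, 3 without epididymal chow array 03 or epididymal ob/ob array 01, and 2 without epididymal chow array 01 or epididymal ob/ob array 03.

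Lep, the gene mutated in ob/ob mice, was still transcribed in their epididymal cells, at 11.68, 12.53 and 12.45, against 13.07, 12.80 and 12.77 in chow cells. In marrow Lep was at 4.94, 7.18 and 4.79 in ob/ob and at 4.55, 5.78 and 5.40 in chow cells. All epididymal ob/ob arrays lay below the chow arrays and the marrow groups overlapped. The interaction of Lep was -1.05 ± 0.56 and missed the threshold (adjusted p = 0.199). Without marrow ob/ob array 03 the interaction of Lep was -1.48 (adjusted p = 0.044). The RNA level does not report on the mutation, which abolishes functional leptin and not its transcript.

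Lepr, the leptin receptor, was at 4.63, 4.70 and 4.53 in epididymal ob/ob and at 4.17, 4.21 and 4.45 in chow cells, and at 7.43, 7.96 and 9.34 in marrow ob/ob and 8.68, 8.57 and 8.59 in chow cells. The marrow ob/ob arrays spread to both sides of the chow arrays. The interaction of Lepr was 0.71 ± 0.46 (adjusted p = 0.312), and without marrow ob/ob array 03 the interaction of Lepr was 1.26 (adjusted p = 0.014). Of 15 genes of leptin receptor signaling 5 were lower and 1 higher, the higher one being Ptpn1, and 3 were higher without marrow ob/ob array 03. Among the lower ones, beside Socs3, was Cish, a feedback inhibitor induced by STAT5, with -1.70 ± 0.24 (adjusted p = 6.1e-06) and differences of -2.33 in epididymal cells and -0.62 in marrow.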

How the data were processed

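Affymetrix Mouse Gene 1.0 ST arrays measured RNA of adipocytes from both depots, with 3 pools a group. The values are on the log2 scale, as deposited by the authors for each array. Their methods describe gcRMA summaries followed by quantile normalization and log2 transformation in Partek, while the submitters' processing notes name Partek, GCRMA and RMA, so which summary made the values was not settled. They were used as deposited. Array medians ran from 5.58 to 5.98 over the series, so the deposited distributions were not equal between arrays. In epididymal cells the medians were 5.87 to 5.98 in ob/ob and 5.76 to 5.86 in chow. In marrow they were 5.82 to 5.88 in ob/ob and 5.81 to 5.90 in chow. How the summary and the scaling affected dim probe sets was not tested.

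Of 35556 probe sets 23410 carry a symbol in the platform annotation (21789 have 1 and 1621 several) and were tested, and 12146 carry none. Of those with 1 symbol 21698 matched a RefSeq gene. Probe sets with several symbols were counted and not named, and some genes are not reported here.

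With limma (version 3.58.1, run under R version 4.3.3), lmFit and eBayes estimated group means from 30 arrays in 10 groups (18-month groups left out), leaving 20 residual and 6.36 prior degrees of freedom for the spread. The interaction was a contrast of 4 means, called at a Benjamini-Hochberg adjusted p below 0.05 with at least a 2-fold difference of differences. A value written with ± is this contrast and its standard error, whose median over probe sets was 0.233. With 3 arrays a group, the number of arrays limits the precision, and p-values measure the spread between pools. No 2 arrays held identical values.

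Members of 36 lists, written from textbook knowledge, were counted at an adjusted p below 0.05 over all tested probe sets without a fold minimum, with 1 probe set per gene (highest mean over all arrays). Of 713 listed genes 662 had a probe set of their own. Named genes were the 15 highest and 15 lowest calls whose arrays did not overlap, the largest calls with opposite called differences, list members, Lep and Lepr. The genes to be named and the lists were chosen with earlier results of these data known.

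Tested on simulated data of the same 23410 probe sets, the fit called 62 of 67 interactions of log2 1.5, 64 of 67 of log2 2, 65 of 66 of log2 3 and 4 of 23210 unchanged probe sets. The simulated spread was normal, equal in all groups and independent between probe sets, whereas on the arrays it was larger in marrow. Few probe sets were changed in the simulation. These counts therefore describe the fit under its own assumptions and not its error rate on the arrays. Alternatives were no moderation, other sets of arrays, other scalings, filters on low or unnamed probe sets, array weights, a replicate block, a term for the set of 8 arrays, other thresholds and leaving out each array.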

Additional observations from a re-analysis of the deposited data

Results flagged for a closer look

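The ob/ob minus chow difference itself differed between the depots, by the test of the interaction, for 2520 probe sets. Among the genes named, the highest interactions (log2) were those of Atp6v0d2 (5.87), Gpnmb (5.17), Cpa3 (4.56), Hpgds (4.49), Tm4sf19 (4.43), Ms4a6d (4.43), Gpr50 (4.39), Adam8 (4.38), Ms4a6b (4.37), Mpeg1 (4.34), Il7r (4.33), C3ar1 (4.32), Anpep (4.23), Ms4a7 (4.21) and Nceh1 (4.18). The lowest were those of Cyp2e1 (-7.57), Fosb (-7.47), Fabp9 (-5.64), Lsmem1 (-4.99), Ccn1 (-4.88), Thrsp (-4.72), Egr1 (-4.71), Mogat1 (-4.62), Nr4a1 (-4.59), Ier2 (-4.37), Pck1 (-4.29), Retnla (-4.26), Cxcl1 (-4.20), Fos (-4.16) and Btg2 (-3.93). Genes whose differences were called in both depots with opposite signs were Ptafr (3.72), Cxcl16 (2.80), Il1rn (2.66), Fnbp1l (2.56), Armcx3 (2.19), Car3 (-3.83), Klf4 (-3.24), Ccdc80 (-2.77) and Slc12a2 (-2.23). The genes named after their values were seen were Mcpt4 (3.98), Tpsb2 (2.91), Ighg3 (2.35), Cma1 (1.76), Stfa2 (-1.98) and Stfa3 (-2.46).

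Probe sets without a gene symbol were outside the comparisons above. Among 12146 of them the interaction was called for 945 (7.78%), of which 830 were higher and 115 lower.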

How the results depend on the processing

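The count of 2520 calls (1469 higher, 1051 lower) became 2399 without variance moderation, 2017 with the 12 arrays alone, 2565 with all 36 arrays, 2625 after quantile normalization, 2567 with each array centred on its median, 2070 of the 12169 probe sets whose mean exceeded the median value, 2245 with 1 probe set per gene, 2688 with array weights, 2635 with an unadjusted p and 2528 with 1 weight per depot, a setting chosen after seeing the data. With all 35556 probe sets there were 3383 calls, of which 2251 were higher. With no fold minimum there were 4633 calls, 2495 higher and 2138 lower. The share of higher calls was 58.3% and became 49.9% after quantile normalization and 48.7% with centring, which moved the median of all genes from -0.05 to -0.14 and -0.17. Leaving out 1 array at a time gave 2397 to 2928 calls, 1277 to 1871 higher and 973 to 1166 lower. Of the 2520 calls, 2015 were called again with the 12 arrays alone, 2169 with array weights and 2188 without marrow ob/ob array 02. In none of these settings was one of the 2520 called in the opposite direction. The signs of calls that were lost were not compared. Without moderation, with the 12 or all 36 arrays, with 1 weight per depot and under the filters and other thresholds, the estimates stayed as they were. A change of sign was not possible there. The replicate block by number gave 2525 calls, and the replicate block by pool, which paired equally numbered pools of the 2 depots, gave 2520. Neither block could move an estimate, since the numbers were balanced over the groups. The correlation within pools was estimated at -0.001, so the block by pool was nearly the main fit again. Neither block changed the call of a named gene. Although both depots came from the same animals, same-numbered arrays of the 2 depots did not deviate together (r from -0.135 to 0.184, over 0.1 in 1 of 6 pairs), so the numbers were not taken to pair the samples. Over 118 named interactions and their alternatives, 3132 of 3172 values kept direction and side of an adjusted p of 0.05, 24 no longer passed, 16 newly passed and 0 reversed. A reversal was possible only in settings that move the estimates. Here, and wherever a named interaction is said to pass or miss the threshold, the adjusted p alone was used, with no fold minimum. With the 12 arrays alone those of Cpt1a, Top2a, Mki67, Pparg, Lcn2 and Fads2 no longer passed. The cause of these changes was not tested. Dim probe sets of either depot may limit what could be seen there, above all a fall, and this was not tested either.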
